A study of Mus musculus with 6 samples.

Results

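The 40 genes described here encode the machinery that moves cargo along cilia: the intraflagellar transport (IFT) trains, the motors that pull them, and the BBSome, a coat-like complex that rides on the trains. They were chosen by gene symbol from a list of transport genes that primary and motile cilia share. All 40 symbols were found among the 54532 genes of the count table, and all 40 were among the 18689 genes that passed the filter on low counts and were tested. Their expression was measured by RNA-Seq in perfused whole lungs of untreated mice at 2 months of age, with 3 libraries from wild-type (WT) C57BL/6J mice and 3 from ISM1-/- mice, which lack the secreted protein isthmin 1 (ISM1) and carry the knockout on a C57BL/6J background. Because WT mice were bought from a supplier and the knockout line was made in the laboratory, effects of genotype and of animal source cannot be told apart.

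Cilia grow at their tip and make no protein of their own. Kinesin-2 motors carry IFT trains with tubulin and other cargo from the base to the tip, and dynein-2 carries them back. IFT-B is the train complex linked to outward transport and IFT-A to the return trip and to the entry of membrane proteins, while the BBSome takes membrane proteins out of the cilium. In the lung, many cell types hold a solitary primary cilium, and the multiciliated cells of the airways carry dense fields of motile cilia made with the same transport genes.

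The transport genes lay slightly below their WT level in ISM1-/- lungs. The log2 fold change (ISM1-/- over WT) was under 0 for 37 of the 40 genes (92.5%), against 48.8% of all genes tested, with a median of -0.14 and a range from -0.35 to 0.07. Over all genes tested the median was 0.0043. In the quasi-likelihood test of edgeR, with p adjusted over all genes by the Benjamini-Hochberg method, 2 members fell past the threshold of an adjusted p under 0.1, Wdr19 and Traf3ip1, and none rose. The 2 genes are 5.0% of the members, close to the 3.34% of all genes that were called lower, so the number of calls does not set the members apart from other genes. DESeq2 and limma-voom called the same 2 genes. At an unadjusted p under 0.05 in edgeR, 12 of the 40 members were lower and 0 higher, against 9.3% of all genes lower. The 3 ISM1-/- libraries lay below the 3 WT libraries without overlap in 11 of the 40 members (27.5%), against 12.3% of all genes, and the reverse order was found in none of the members, against 9.33% of all genes. The members act in shared complexes and were measured in the same libraries, so they are not independent of each other, and neither these shares nor the median carries a test.

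**Figure D1:**
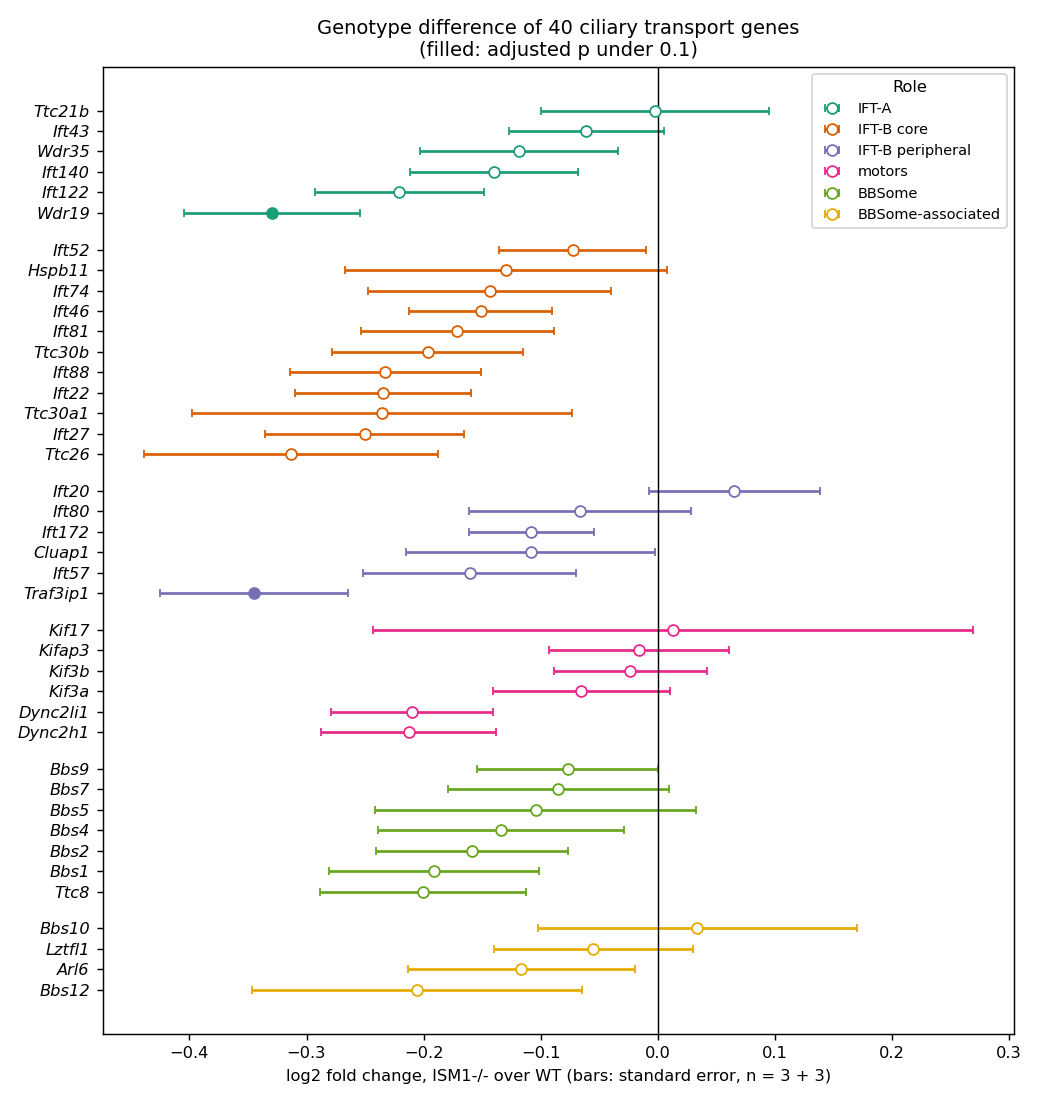
Log2 fold change of ISM1-/- over WT for each of the 40 transport genes, grouped by role, with points for the edgeR estimate, bars for its standard error (3 libraries per genotype) and filled points for an adjusted p under 0.1. All but 3 points (Ift20, Kif17 and Bbs10) lie left of 0, and only Wdr19 and Traf3ip1 are filled.

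The depth was alike in all libraries, with 37606133 to 42345042 counts each, and members took 0.0955% to 0.110% of them. A total of 882 genes were called (4.72%), of which 258 were higher (1.38%) and 624 lower (3.34%). Counts of Ism1 itself, as of all genes below, were scaled to CPM (counts relative to library size) with the TMM factors of edgeR. The values were 82.2, 77.5 and 76.9 CPM in WT, against 65.5, 66.1 and 75.7 CPM in libraries labelled ISM1-/- (log2 fold change -0.19, SE 0.0709, adjusted p 0.217 by edgeR). RNA of the targeted gene was thus present in all 6 libraries, and as the knockout allele is not described in the sources used here, whole-gene counts did not check the labels. Every direction below rests on the labels as given.

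The ISM1-/- libraries were not alike in the members. In each library, the CPM of every member was divided by its WT mean. The median log2 ratio was -0.03, 0.0068 and 0.0058 in WT replicates 1 to 3, and -0.18, -0.19 and -0.04 in ISM1-/- replicates 1 to 3. Replicates 1 and 2 of the knockout held 39 and 38 of the 40 members below the WT mean, whereas replicate 3 held 24, a number near the 18 to 25 of the WT libraries. Within its genotype, ISM1-/- replicate 3 had the highest CPM in 31 of the 40 members. This order was also seen in some gene lists outside the members, as given below. The summed CPM of the members was 1069, 1096 and 1096 in WT and 956.8, 954.3 and 1059 in ISM1-/-. The genotypes did not overlap in this sum, but ISM1-/- replicate 3 lay next to the lowest WT library. Without it, 12 members were called lower, and when any of WT replicate 2, WT replicate 3, ISM1-/- replicate 1 or ISM1-/- replicate 2 was left out instead, none was. Calls over all genes moved the same way, with 900 genes lower without ISM1-/- replicate 3 and 115, 253, 169 and 181 in those other fits, against 624 with all libraries.

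**Figure D2:**
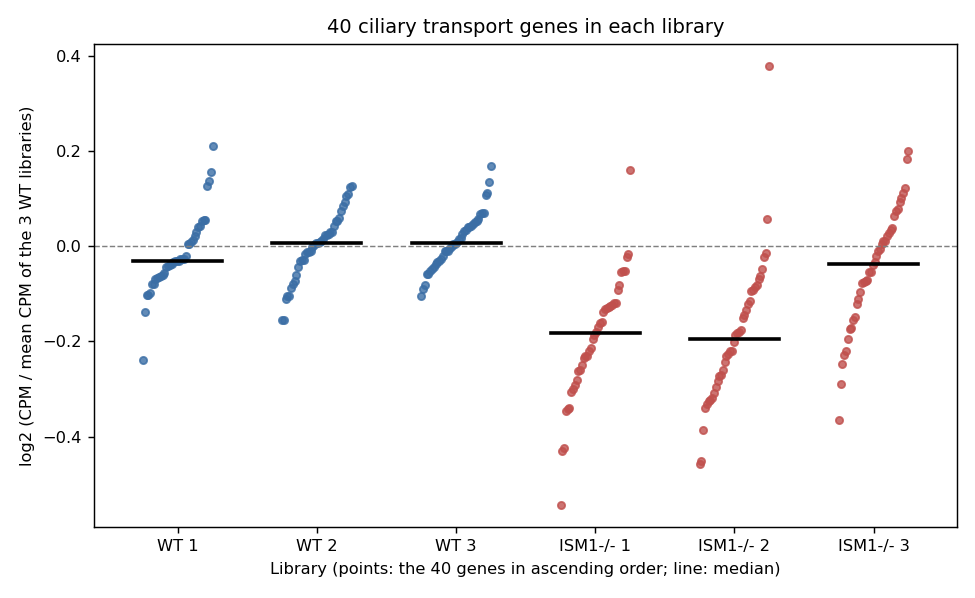
Log2 ratio of CPM to the mean of the 3 WT libraries for each of the 40 transport genes in each library, with points in ascending order and a line at the median. The lines of ISM1-/- replicates 1 and 2 lie at -0.18 and -0.19, and that of replicate 3 at -0.04, near the WT libraries.

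IFT-A held the called member with the most even ISM1-/- libraries. Wdr19 (chromosome 5, 65199696 to 65260415, plus strand of GRCm38) encodes a core subunit of IFT-A. It measured 34.5, 39.5 and 37.1 CPM in WT and 27.5, 30.7 and 30.3 CPM in ISM1-/- libraries. The genotypes did not overlap, all 3 ISM1-/- libraries were below the lowest WT library, and replicate 3 did not stand apart. Wdr19 fell to 79.6% of its WT mean (log2 fold change -0.33, SE 0.0752, adjusted p 0.0535 by edgeR). When each library was omitted in turn, the call held in 2 of 6 fits, and the log2 fold change ranged from -0.38 to -0.28 and the adjusted p from 0.0457 to 0.207.

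Among the other IFT-A genes, Ift122, which encodes another core subunit, was also without overlap, at 29.0, 28.0 and 29.7 CPM in WT and 26.6, 23.1 and 24.7 CPM in ISM1-/- libraries. Its log2 fold change of -0.22 was not called (adjusted p 0.16 by edgeR). Ift140, the third core subunit, had a log2 fold change of -0.14. The peripheral subunit genes Wdr35, Ift43 and Ttc21b had values of -0.12, -0.06 and -0.0024, with overlapping libraries. All 6 IFT-A genes lay below 0, with a median of -0.13. The value of Ttc21b is within its error of 0 (SE 0.0977). It lay above 0 with RLE scaling (0.0027) and ranged from -0.11 to 0.07 with each library omitted in turn.

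The IFT-B core, which binds tubulin through Ift74 and Ift81 and holds Ift88, a subunit needed to assemble cilia, had the lowest median of the 6 role groups at -0.20. All 11 of its genes lay below 0, from -0.31 to -0.07, 5 were without overlap, and none was called by edgeR, although 6 had an unadjusted p under 0.05. Over all genes, 12.3% were lower without overlap and 9.3% lower at that p. The largest difference was in Ttc26, at 14.4, 12.9 and 14.4 CPM in WT and 9.55, 10.7 and 13.4 CPM in ISM1-/- libraries. Here ISM1-/- replicate 3 reached into the WT range, and the log2 fold change of -0.31 (SE 0.125) was not called (adjusted p 0.253 by edgeR). Without that library it was -0.46 and passed the threshold.

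Ift88 measured 29.3, 31.1 and 29.2 CPM in WT and 23.6, 24.3 and 28.4 CPM in ISM1-/- libraries. Its replicate 3 sat just under the lowest WT library, and the log2 fold change was -0.23 (SE 0.0816, adjusted p 0.189 by edgeR). The other core genes without overlap were Ift22 and Ift27, which encode small GTPase-like subunits, with log2 fold changes of -0.23 and -0.25, and Ift46, with -0.15. In Ift22 the ISM1-/- libraries ran from 17.3 to 19.5 CPM and the WT libraries from 20.8 to 22.5 CPM, and in Ift46 from 33.0 to 35.2 CPM and from 37.25 to 38.1 CPM. In Ift27 the ISM1-/- libraries ran from 13.4 to 15.9 CPM and the WT libraries from 17.0 to 17.6 CPM. Hspb11, whose product pairs with that of Ift27, had a log2 fold change of -0.13 with overlapping libraries, and Ift52 and the tubulin-binding pair Ift74 and Ift81 overlapped as well, at -0.07, -0.14 and -0.17.

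The Ttc30 genes are related copies that encode the same kind of IFT-B subunit and share part of their sequence. Ttc30b measured 20.2, 19.0 and 19.1 CPM in WT and 16.7, 15.7 and 18.4 CPM in ISM1-/- libraries, without overlap (log2 fold change -0.20, adjusted p 0.271 by edgeR). Ttc30a1 was lower expressed, at 4.54, 3.86 and 3.83 CPM against 3.29, 2.98 and 4.10 CPM, with overlap and a log2 fold change of -0.24 (SE 0.162). The third copy, Ttc30a2, is no member and did not pass the filter, having 5, 13 and 7 reads in the WT libraries against 8, 10 and 10 reads in the ISM1-/- libraries. In the GENCODE M21 transcripts, 63 of the 2588 windows of 150 bases in Ttc30b (2.43%) recur in Ttc30a1, and 225 (8.69%) recur in Ttc30a2. Of the 3572 windows in Ttc30a1, 438 (12.3%) recur in Ttc30a2. How reads that match more than 1 copy were counted is not given in the sources used here, so the split of counts among the copies is uncertain.

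Traf3ip1, a microtubule-binding peripheral subunit of IFT-B (chromosome 1, 91494647 to 91529307, plus strand), had the largest difference of all members. It measured 70.1, 72.8 and 74.0 CPM in WT and 53.9, 52.7 and 64.2 CPM in ISM1-/- libraries. The genotypes did not overlap, but ISM1-/- replicate 3 lay about midway between its own group and WT. Traf3ip1 fell to 78.7% of its WT mean (log2 fold change -0.35, SE 0.0804, adjusted p 0.0571 by edgeR). Its call likewise held in 2 of 6 fits with a library omitted, with a log2 fold change from -0.44 to -0.29 and an adjusted p from 0.00703 to 0.211. No exon of Wdr19 or Traf3ip1 overlaps an exon of another gene in GENCODE M21.

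The other peripheral genes differed less. Ift172, which encodes the largest of the IFT-B subunits, was held within 85.4 to 86.4 CPM in WT and 78.3 to 81.8 CPM in ISM1-/- libraries, without overlap, and its log2 fold change of -0.11 (SE 0.0535) was not called (adjusted p 0.371 by edgeR). Ift57, Cluap1 and Ift80 had values of -0.16, -0.11 and -0.07 with overlapping libraries. Ift20, whose product binds that of Traf3ip1 and also works at the Golgi, had the highest log2 fold change of the members, 0.07 (SE 0.0728), at 54.3, 54.3 and 51.1 CPM in WT and 51.3, 55.4 and 60.4 CPM in ISM1-/- libraries.

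**Figure D3:**
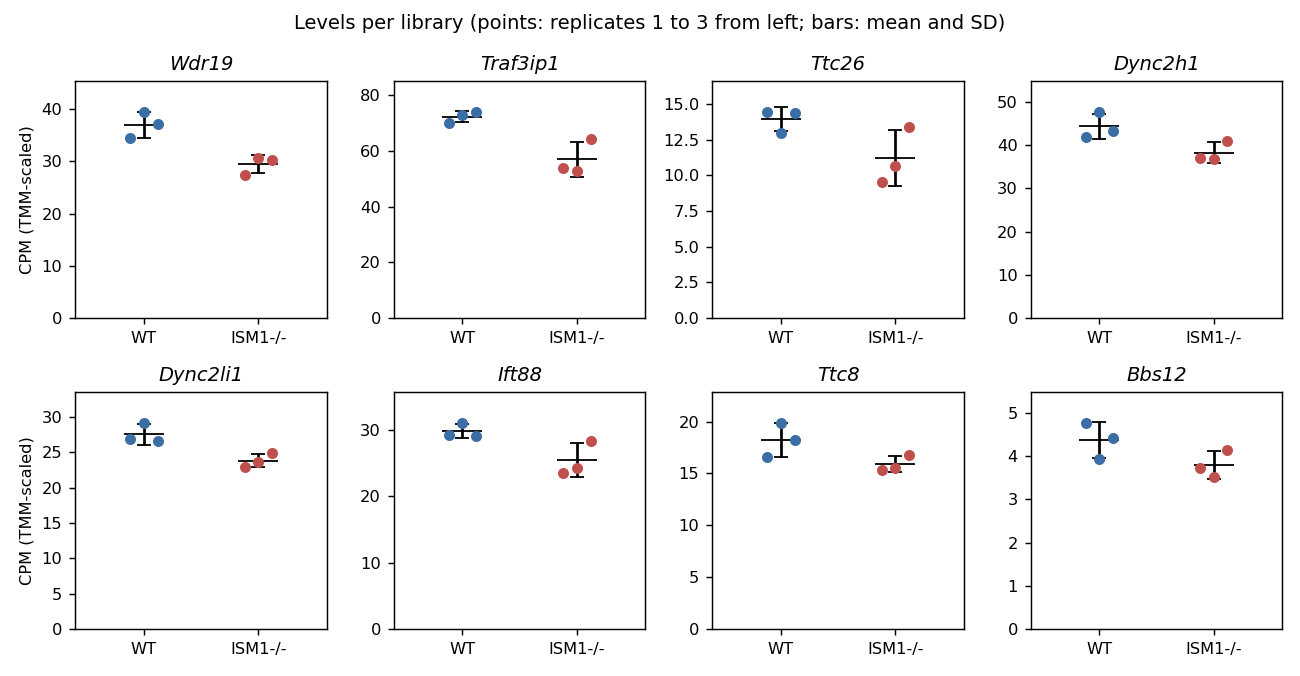
CPM of 8 transport genes in each library, with points for replicates 1 to 3 from left and bars for the mean and SD of the 3 libraries. Wdr19, Traf3ip1, Dync2h1, Dync2li1 and Ift88 do not overlap between genotypes, whereas Ttc26, Ttc8 and Bbs12 do, and the right-hand ISM1-/- point is the highest of its group in all of them except Wdr19.

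Among the motors, the dynein-2 and kinesin-2 genes gave different values. Dync2h1, the heavy chain that drives return transport, measured 42.0, 47.7 and 43.4 CPM in WT and 37.0, 36.7 and 41.1 CPM in ISM1-/- libraries. Dync2li1, its light intermediate chain, measured 26.8, 29.2 and 26.6 CPM and 23.0, 23.6 and 24.8 CPM. Neither gene overlapped between genotypes, and their log2 fold changes of -0.21 and -0.21 were not called (adjusted p 0.191 and 0.164 by edgeR). The 95% intervals of the log2 fold changes, which are not adjusted for the number of genes, were -0.38 to -0.05 and -0.36 to -0.06.

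The subunits of the heterotrimeric kinesin-2 motor, Kif3a, Kif3b and Kifap3, had log2 fold changes of -0.07, -0.02 and -0.02, all with overlap. Their 95% intervals were -0.23 to 0.10, -0.17 to 0.12 and -0.19 to 0.16. The estimates of the dynein-2 genes lie within the interval of Kif3a but outside those of Kif3b and Kifap3. The intervals of the dynein-2 genes overlap all of these. Kif17, a second kind of kinesin-2, was near 1 CPM in every library (0.820 to 1.26) and its interval of -0.56 to 0.58 allows differences of either sign. Whether the dynein-2 genes differ from the kinesin-2 genes in their response was not tested.

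The 7 BBSome subunit genes all lay below 0, from -0.20 to -0.08 with a median of -0.13, and all overlapped between genotypes. Ttc8 had the largest difference, at 16.6, 19.9 and 18.2 CPM in WT and 15.3, 15.6 and 16.8 CPM in ISM1-/- libraries. Its ISM1-/- replicate 3 was just above the lowest WT library, and the log2 fold change of -0.20 (SE 0.088) was not called (adjusted p 0.306 by edgeR). Bbs1, Bbs2 and Bbs4 followed with -0.19, -0.16 and -0.13, and Bbs5, Bbs7 and Bbs9 with -0.10, -0.08 and -0.08. With 1 library omitted, the values of Bbs4, Bbs5, Bbs7 and Bbs9 came as near 0 as -0.0149, -3e-04, -0.01 and -0.0176. Those of Ttc8, Bbs1 and Bbs2 stayed at -0.0996 or lower.

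Of the 4 genes that act on the BBSome, Bbs12, a chaperonin-like gene that helps to assemble it, had the largest difference. It measured 4.77, 3.93 and 4.42 CPM in WT and 3.72, 3.51 and 4.15 CPM in ISM1-/- libraries, with overlap (log2 fold change -0.21, SE 0.141, adjusted p 0.539 by edgeR). Bbs10, of the same chaperonin-like group, had a value of 0.03. Arl6, the small GTPase that brings the BBSome to membranes, had -0.12, and Lztfl1, which regulates its entry into cilia, -0.06. Exons of Bbs12 overlap those of Cetn4 on the opposite strand by 32 bases and exons of Bbs4 overlap those of Adpgk by 194 bases. As the strand setting of the counting is not given in the sources used here, reads in these stretches cannot be assigned to either gene. A total of 7 members share exon bases with another tested gene. In Kif17 the overlap is with Sh2d5 on the same strand, over 74 bases. Mean counts per library were 38.7 for Kif17 and 22.3 for Sh2d5.

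For levels, the deposited FPKM values (fragments per kilobase of gene and per unit of library depth) were used, since they are per length. In WT lungs, Ift172 had the highest level of the members, 74.1 ± 0.436 FPKM (SD, n = 3), followed by Ift20 with 58.9 ± 2.02, Ift43 with 46.9 ± 1.45 and Ift46 with 39.4 ± 0.551. A level of 10 FPKM or more was reached by 26 of the 40 members, and 4 were under 2 FPKM: Bbs12 with 1.83 ± 0.181, Bbs10 with 1.29 ± 0.0646, Ttc30a1 with 1.10 ± 0.109 and Kif17 with 0.361 ± 0.0289. Of the 39 neighbours in the order of WT levels, 24 were within their SDs of each other, mostly between Dync2li1 at 20.8 FPKM and Ttc26 at 6.73 FPKM, so the order of the genes in this range is largely unresolved.

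In ISM1-/- lungs the levels kept this spread, with 68.4 ± 0.921 FPKM for Ift172, 61.2 ± 4.39 for Ift20 and 0.364 ± 0.0919 for Kif17. The length behind the FPKM values is often shorter than the deposited gene length. For Ift172 it was 1161 bases against 6617, and on the longer length the level would be 13.0 FPKM, below Ift20 with 34.96, Dync2li1 with 20.8, Traf3ip1 with 19.5 and Ift43 with 18.4. Kif17 was the lowest on both lengths.

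**Figure D4:**
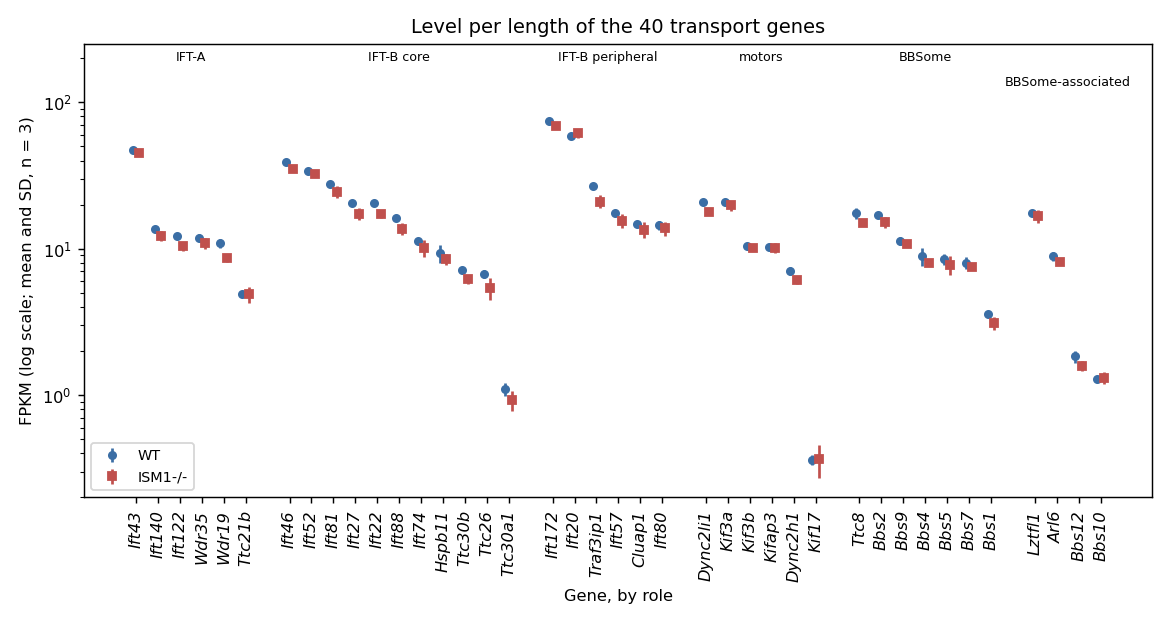
Deposited FPKM of the 40 transport genes on a log axis, as mean and SD of 3 libraries, for WT (circles) and ISM1-/- (squares), ordered by WT level within each role. Levels run from 74.1 FPKM (Ift172) to 0.361 FPKM (Kif17) in WT, and the genotypes lie close together in every gene relative to this range.

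Cilia genes are known targets of RFX transcription factors, which bind an X-box. The promoters of the members were therefore searched for the letters GTNNCC, a spacer of 0 to 3 bases and NGNAAC on both strands. RefSeq promoters of 300 bases (250 before and 50 after the start site, GRCm38.p6) were found for 35 of the 40 members, all but Dync2li1, Ttc30b, Ift81, Ift80 and Ift122. A match was present in 9 of the 35 (25.7%), against 5.94% of all 27025 genes with a promoter in the table and 7.05% of those tested here. Among the other cilia genes with a promoter, it was present in 2 of 19 further transport genes (10.5%), 10 of 15 transition zone genes (66.7%) and 10 of 21 multiciliated cell genes (47.6%). The matches lay in Ift22, Ift74, Ttc26, Ift57, Kif17, Bbs1, Bbs4, Bbs7 and Lztfl1. The Kif17 match lies inside the counted gene, which begins at position 138250435, so it belongs to a later RefSeq start site. Of 12 match positions, 8 were centred before the start site and 10 within 100 bases of it. Matches from members of different roles follow as stretches of 30 bases in lower case, with the match in capitals, so that the shared arms and the varying spacer can be read.
Ttc26, chr6:38381483-38381512, plus strand: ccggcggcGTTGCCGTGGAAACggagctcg
Ift22, chr5:136908109-136908138, plus strand: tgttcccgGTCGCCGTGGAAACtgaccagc
Ift57, chr16:49699226-49699255, plus strand: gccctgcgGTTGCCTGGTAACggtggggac
Kif17, chr4:138262170-138262199, plus strand: tcacggagGTTGCCCAGCAACggcgaacgc
Bbs7, chr3:36613489-36613518, minus strand: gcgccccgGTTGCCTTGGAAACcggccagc
Lztfl1, chr9:123717767-123717796, minus strand: tttctctGTTGCCATTGGCAACggcaggca

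The first arm alone in its common form, GTTGCC, was in 15 of the 35 promoters (42.9%), against 14.1% of all genes and 14.9% of those tested. It lies within the longer match in some of them, as in Ttc26 and Bbs7, so both shares count the same letters in part. Neither called member had a full match, and Traf3ip1 had the short arm. The 9 members with a match had a median log2 fold change of -0.14 and 1 gene lower without overlap, Ift22. The 26 without a match had a median of -0.12 and 7 such genes. Over all genes, 12.3% were lower without overlap, and members with and without a match were not compared by a test. Members with a match thus ranged from Ttc26 at -0.31 to Kif17 at 0.01. A match describes these letters only.

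Genes that work beside the members were taken from lists. A list of further transport genes (other dynein-2 subunits, small GTPases and BBSome partners) had 20 of 21 genes tested. Of these, 2 fell and none rose, with a median log2 fold change of -0.05. In 5 of the 20 the ISM1-/- libraries were lower without overlap, against 12.3% of all genes, of which 3.34% were called lower. The called genes were Wdr34, an intermediate chain of dynein-2, and Rabl2, a small GTPase of the IFT-B train. Wdr34 measured 16.3, 18.6 and 16.6 CPM in WT and 12.9, 12.7 and 12.4 CPM in ISM1-/- libraries (log2 fold change -0.44, SE 0.0837, adjusted p 0.0314 by edgeR). Rabl2 measured 21.99, 22.1 and 22.5 CPM against 16.2, 17.0 and 18.5 CPM (log2 fold change -0.37, SE 0.0744, adjusted p 0.0375 by edgeR). Wdr60, the other intermediate chain of dynein-2, named after its values were seen, was without overlap at -0.21 and was not called (adjusted p 0.191 by edgeR). The light chain genes of the list, Tctex1d2, Dynlrb1 and Dynll1, also named after their values were seen, overlapped between genotypes and were not called, at -0.14, -0.03 and 0.03. With each library omitted in turn, Wdr34 was called in 4 and Rabl2 in 2 of 6 fits.

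The transition zone, the gate at the base of the cilium, was covered by 17 genes, of which 2 fell and none rose, with a median of -0.18 and 10 genes without overlap. Over all genes, 3.34% were called lower and 12.3% were lower without overlap. Nphp4 measured 7.11, 8.94 and 6.93 CPM in WT and 5.03, 5.14 and 5.28 CPM in ISM1-/- libraries (log2 fold change -0.57, adjusted p 0.0517 by edgeR). Tmem231 measured 14.5, 14.8 and 14.6 CPM against 12.1, 11.6 and 11.7 CPM (log2 fold change -0.31, adjusted p 0.0715 by edgeR). With each library omitted in turn, Nphp4 was called in 3 and Tmem231 in 1 of 6 fits, and no gene of the list was called without WT replicate 2, ISM1-/- replicate 1 or ISM1-/- replicate 2.

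Markers of multiciliated cells differed more than the members in these libraries. Of 25 listed genes, 17 fell and none rose, all 25 lay below 0, and the median log2 fold change was -0.42, against -0.14 for the transport genes and 0.0043 for all genes, of which 3.34% were called lower. With 1 library omitted, 3 (without WT replicate 2) to 22 (without ISM1-/- replicate 3) genes of the list were called lower. Foxj1, the master transcription factor of motile cilia, measured 105.8, 124.3 and 116.1 CPM in WT and 84.9, 79.8 and 77.7 CPM in ISM1-/- libraries (log2 fold change -0.51, adjusted p 0.0118 by edgeR). ISM1-/- replicate 3 had the lowest Foxj1 of its genotype, but the highest value of its genotype in 18 of the 25 listed genes, as it had in 31 of the 40 members. It was also highest in 8 of 8 adipocyte, 8 of 8 cardiomyocyte and 5 of 8 club cell genes. In the transition zone it was highest in 8 of 17 genes and lowest in 7. It was highest in 3 of 8 alveolar type 2 and 2 of 8 fibroblast genes. The share over all genes was not counted. The summed CPM of the list was 1352, 1492 and 1431 in WT and 1111, 1150 and 1209 in ISM1-/- libraries, without overlap, and no gene of the list was at 0 counts. In bulk lung RNA, fewer cells of a type and less RNA per cell cannot be told apart, and the part of multiciliated cells in the values of the members was not tested.

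**Figure D5:**
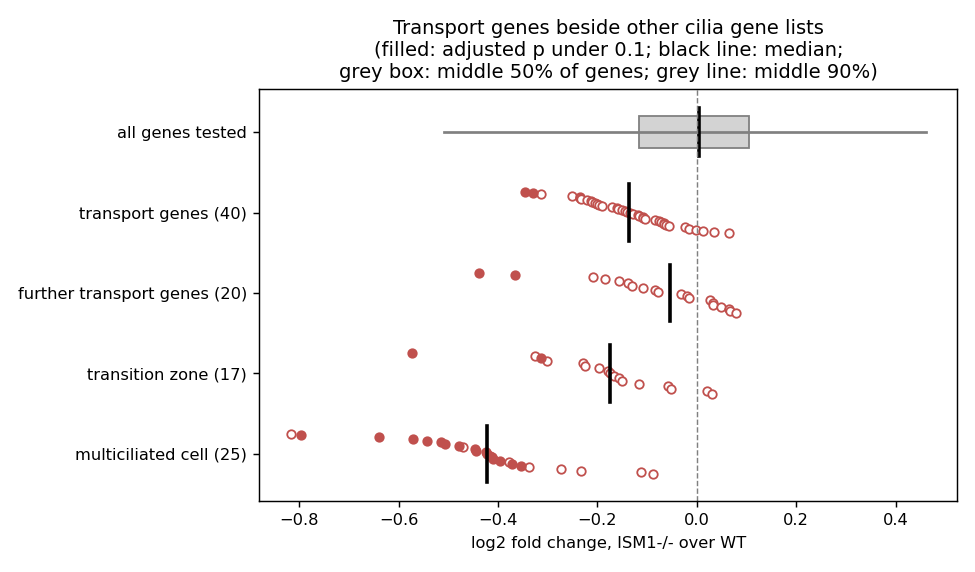
Log2 fold change of ISM1-/- over WT for the 40 transport genes, for 20 further transport genes, 17 transition zone genes and 25 multiciliated cell genes, with points per gene, filled for an adjusted p under 0.1, and black lines at the medians. The grey box and line show the middle 50% and 90% of all 18689 genes tested; the medians of the 4 lists are -0.14, -0.05, -0.18 and -0.42.

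Markers of some other lung cell types differed between genotypes as well, and in other types few or none were called. Of 8 club cell genes, 6 fell, with a summed CPM of 24910 to 26810 in WT and 16420 to 20460 in ISM1-/- libraries. Most of this sum is a single gene, Scgb1a1, with a mean of 20920 CPM in WT and 14670 CPM in ISM1-/- libraries. Of 8 fibroblast genes, 4 fell (Col1a1, Dcn, Lum and Pi16) and none rose, and 3 lay above 0. The sums of the fibroblast list were 2109 to 2237 in WT and 1949 to 2041 in ISM1-/- libraries. All 8 adipocyte genes fell, with sums of 165.6 to 219.9 and 39.2 to 103.4. Of 8 cardiomyocyte genes, 1 fell (Myl7). The cardiomyocyte sums overlapped, at 1625, 532.2 and 634.8 in WT replicates 1 to 3 and 290.9 to 566.2 in ISM1-/- libraries, so WT replicate 1 stood apart from its group. None of 8 alveolar type 2 and 8 endothelial genes was called, and of 7 alveolar type 1 genes 1 rose (Rtkn2). Of the endothelial genes 6 lay above 0, with 3 higher without overlap, against 9.33% of all genes. Of the alveolar type 1 genes 6 lay above 0, with 1 higher without overlap. Of the alveolar type 2 genes 7 lay below 0, with 3 lower without overlap, against 12.3% of all genes. Over all genes, 3.34% were called lower and 1.38% higher. No marker in these lists was at 0 counts in the series. Their part in the values of the members was not tested.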

How the data were processed

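Total RNA of perfused whole lungs was sequenced as strand-specific, poly-A enriched libraries in paired reads of 150 bases. The authors cleaned the reads and mapped them by STAR (GRCm38). They deposited unnormalized read counts for each gene, and FPKM values in which counts are divided by the library total and a gene length. The counter, annotation and strand setting are not given in the sources used here. The members and lists were chosen with earlier results of these data known.

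The counts were tested with edgeR 4.0.16 (R 4.3.3), using TMM scaling, a filter of 0.5 CPM in 1 library or more, a quasi-likelihood test of genotype over all 6 libraries without covariates, two-sided, and Benjamini-Hochberg adjustment over all 18689 genes. Called genes had an adjusted p under 0.1, with no fold minimum. The study describes the replicates as biological. No library pair agreed within sampling noise. Values in every library are given for called members, the member with the largest difference in each role, and the Ttc30 genes; Ift20, Ift88, Ift122 and Dync2li1 were added after their values were seen. For other members the fold change is given. Of other genes, called genes of the further transport and transition zone lists are given with their values, and Foxj1 stands for the multiciliated cell list. The other cell type lists are given by counts and sums, with names for some called genes. The mean of Scgb1a1 was added after its values were seen. The symbols Dnai1 and Dnai2 of the multiciliated list were matched as Dnaic1 and Dnaic2.

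Alternatives were DESeq2 1.42.0, limma-voom (limma 3.58.1), RLE factors, library totals, other filters, other thresholds, a block for the replicate number, leaving out each library in turn and, chosen after seeing the data, a GC correction in 20 bins. Promoters came from RefSeq. The authors' FPKM values served only for levels.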

Additional observations from a re-analysis of the deposited data

How the results depend on the processing

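Wdr19 and Traf3ip1 were the called members under DESeq2, RLE factors, library totals, each other filter on low counts, limma-voom, the replicate block and without WT replicate 1. With a GC correction, chosen after seeing the data, 5 members were called lower, the added genes being Dync2h1, Dync2li1 and Ift88, while 744 of all genes were called lower and 384 higher, against 624 and 258. The members have a median transcript GC of 46.3%, against 49.6% over all genes tested. At an adjusted p of 0.05, no member and no transition zone gene was called, and over all genes 113 were higher and 342 lower. With a 2-fold minimum, the calls lower were 0 among members, further transport genes, transition zone genes, multiciliated cell genes and club cell genes, and over all genes 53 were higher and 53 lower. Over all genes, the higher calls were 466 under DESeq2 and 566 with no filter, where the lower calls were 1066.

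Leaving out 1 library at a time gave 0 to 12 members called lower, with 0 called higher, and a median log2 fold change of the members from -0.19 to -0.10. Over all genes it gave 35 to 570 higher and 115 to 900 lower calls. Lower calls ranged from 0 to 3 in further transport genes, 0 to 4 in the transition zone, 3 to 22 in multiciliated cell genes and 0 to 5 in club cell genes. The lowest counts over all genes came without WT replicate 2. The 12 members called without ISM1-/- replicate 3 were Bbs2, Dync2h1, Dync2li1, Ift22, Ift57, Ift74, Ift81, Ift88, Traf3ip1, Ttc26, Ttc30b and Wdr19. Members below 0 numbered 33 to 38 in these 6 fits and 36 to 38 in the 9 other alternatives that refit the data. The causes were not tested. The number of promoters with an X-box match was 8 with a spacer of 0 to 2 bases.

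With the replicate number as a block, 399 genes over all were higher and 706 lower, against 258 and 624 without it. The same 2 members were called. The labels give only replicate numbers, and whether libraries of equal number share a batch was not tested. The correlations of their deviations from the genotype means over all genes were -0.0274, 0.0313 and 0.0371. WT replicate 2 correlated best with ISM1-/- replicate 1 (0.0618). With 3 libraries per genotype at 37606133 counts or more, the standard errors of the members' log2 fold changes ran from 0.0535 (Ift172) to 0.256 (Kif17). Differences within this error could not be detected, and larger ones could be missed as well. Dync2li1, at -0.21 with an SE of 0.0691, was not called (adjusted p 0.164 by edgeR).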
